A study of Homo sapiens with 6 samples.

Results

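Extracellular signal-regulated kinase (ERK) sits at the end of the RAS, RAF and MEK cascade, and the genes it switches on include its own brakes. The 10 genes described here are 3 dual-specificity phosphatases that act on MAP kinases (DUSP4, DUSP5 and DUSP6), 3 Sprouty genes (SPRY1, SPRY2 and SPRY4), 2 SPRED genes (SPRED1 and SPRED2), and the ERK output genes PHLDA1 and ETV5. They were selected by gene symbol from the 28862 genes of the deposited count table, all 10 were found, and all 10 passed the filter on low counts, as did 15829 genes in all. The list was drawn up with results of these libraries in view, and PHLDA1 in particular was already known to be higher. The values below are therefore descriptions. The p-values printed for members, from a fit to all genes or from permutation of ratios between members, carry no weight as independent evidence.

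The libraries come from SH-SY5Y, a human neuroblastoma cell line of sympathetic, adrenergic type in which growth factor receptors signal through ERK to neurite outgrowth and survival. There were 3 libraries from cells labelled as overexpressing SMN1, called SMN1-labelled here, and 3 from cells given a control plasmid. Both groups are the same line, and the labels give no vector, promoter, time after plasmid delivery or clone. The study asks how the SH-SY5Y transcriptome differs when SMN1, the survival motor neuron gene, is overexpressed. The SMN1-labelled libraries held 31740870 to 40275498 counted reads and the control libraries 30379242 to 31286361. SMN1 itself was at 16.0 ± 1.08 CPM in the SMN1-labelled and 20.02 ± 0.432 CPM in the control libraries (SD, n = 3 each). SMN2, a near-identical copy whose reads the counting may not separate, was at 7.63 ± 0.427 CPM in the SMN1-labelled and 9.40 ± 0.358 CPM in the control libraries, so the targeted gene goes against the label and every direction below is between libraries as labelled. CPM are read counts scaled to library size with TMM factors. Of 10 adrenergic markers 9 were above 1 CPM and TH, the tyrosine hydroxylase gene, was below it in every library. The summed level of the 10 was 33257 to 34534 CPM in the SMN1-labelled and 25862 to 27628 CPM in the control libraries, with 4 genes called higher and 5 lower. The summed level of 7 mesenchymal or fibroblast markers was 40.4 to 44.7 CPM in the SMN1-labelled and 58.6 to 63.4 CPM in the control libraries, with COL1A2 and DCN below 1 CPM throughout. The 8 epithelial, endothelial and blood markers in the table summed to 2.99 to 3.49 CPM in the SMN1-labelled and 4.93 to 6.07 CPM in the control libraries, and the 4 glial markers to 0.973 to 1.40 CPM in the SMN1-labelled and 1.56 to 2.82 CPM in the control libraries. The part of these markers in the results was not tested. Whether the 3 libraries of each group go back to separate cultures is not in the labels, so the p-values reflect the spread of these libraries, which may be technical. In bulk RNA, fewer cells of a type and less RNA per cell cannot be told apart.

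Feedback on this pathway works at several levels. DUSP phosphatases remove the activating phosphates from MAP kinases, Sprouty proteins dampen signalling between receptor tyrosine kinases and RAF, and SPRED proteins bring neurofibromin, a RAS inhibitor, to the membrane. PHLDA1 encodes a pleckstrin homology-like protein and ETV5 an ETS transcription factor of the PEA3 group, and the transcripts of both are widely read as ERK output.

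Promoter windows of 300 nt, from 250 nt before to 50 nt after a RefSeq transcription start on GRCh38.p14, were at hand for 7 of the 10 genes (all but DUSP4, DUSP5 and ETV5), with 11 windows in all. They are shown for the gene with the largest difference, for a feedback gene of known ERK dependence that was not called, and for the windows that hold the AP-1 and the long ETS match. Letters run 5′ to 3′ on the strand of the gene, and capitals mark matches on either strand to GGAA (the ETS core), CCGGAAG (a longer ETS site), TGANTCA (AP-1), TGACG (the core of a cAMP response element) or TATAAA.
PHLDA1, chr12:76031727-76032026, minus strand: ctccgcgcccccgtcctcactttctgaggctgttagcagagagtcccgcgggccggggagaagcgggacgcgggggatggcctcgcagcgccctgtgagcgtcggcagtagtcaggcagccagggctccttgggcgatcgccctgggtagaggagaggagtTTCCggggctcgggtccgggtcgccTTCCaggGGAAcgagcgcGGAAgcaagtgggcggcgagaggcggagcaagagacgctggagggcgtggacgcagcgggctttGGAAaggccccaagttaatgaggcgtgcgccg
DUSP6, chr12:89352452-89352751, minus strand: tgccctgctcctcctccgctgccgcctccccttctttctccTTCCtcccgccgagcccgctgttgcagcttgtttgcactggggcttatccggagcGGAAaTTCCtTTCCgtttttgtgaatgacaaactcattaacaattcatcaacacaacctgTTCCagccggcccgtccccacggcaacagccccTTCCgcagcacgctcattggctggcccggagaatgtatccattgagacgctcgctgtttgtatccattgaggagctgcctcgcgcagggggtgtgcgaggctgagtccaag
SPRED2, second listed start, chr2:65366729-65367028, minus strand: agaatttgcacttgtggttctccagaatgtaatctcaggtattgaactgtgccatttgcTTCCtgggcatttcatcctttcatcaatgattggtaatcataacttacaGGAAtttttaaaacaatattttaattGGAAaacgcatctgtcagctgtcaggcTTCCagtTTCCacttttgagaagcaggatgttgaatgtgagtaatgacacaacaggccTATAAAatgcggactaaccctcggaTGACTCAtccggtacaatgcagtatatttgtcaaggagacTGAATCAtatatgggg
SPRY1, second listed start, chr4:123398136-123398435, plus strand: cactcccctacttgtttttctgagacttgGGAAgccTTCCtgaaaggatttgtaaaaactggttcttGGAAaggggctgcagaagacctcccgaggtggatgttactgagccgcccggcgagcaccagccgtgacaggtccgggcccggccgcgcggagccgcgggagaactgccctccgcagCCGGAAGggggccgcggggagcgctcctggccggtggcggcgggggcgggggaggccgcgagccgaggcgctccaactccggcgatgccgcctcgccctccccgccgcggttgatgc

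The PHLDA1 window held 5 ETS cores and none of the longer motifs, and the DUSP6 window held 6 ETS cores and likewise none. An ETS core stood in every one of the 11 windows, with 3 to 6 matches each, and in 95.5% of the 35116 promoters of the table. The second SPRED2 window held 2 AP-1 matches, starting 6 nt before and at base 35 after the start, and a TATAAA match 31 nt before it. The last bases of this window were not found as a run in any GENCODE 29 transcript of SPRED2, as was so for the first and second SPRY2 windows in those of SPRY2. AP-1 matches occurred in 7.71% of all promoters and TATAAA in 11.5%. The second SPRY1 window held the 1 CCGGAAG match, a motif found in 10.3% of promoters, and this match contains an ETS core. TGACG stood in the first windows of SPRED2, SPRY2 and SPRY4 and in 24.6% of all promoters. The full cAMP response element TGACGTCA (1.85% of promoters) and the serum response element, by its CArG box (1.29%), had no match in these windows. Which start each library used was not measured, and a match is a string of letters, not a bound site.

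**Figure D1:**
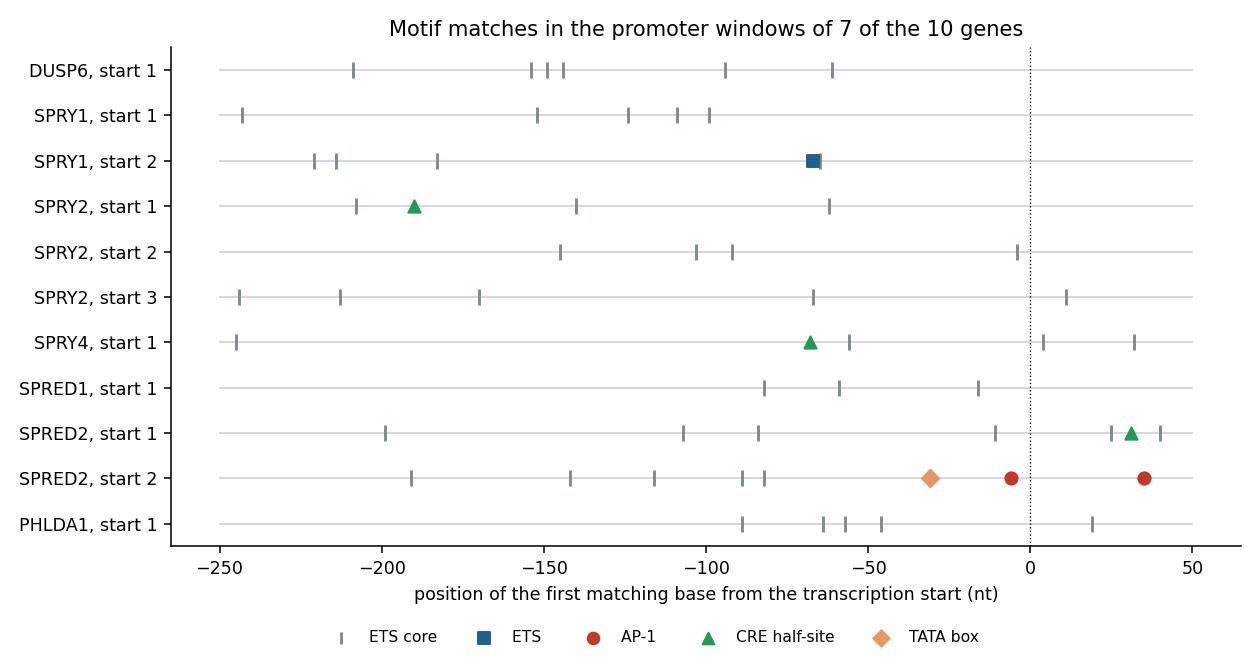
Motif matches along the 11 promoter windows, 1 line per listed start, by position from the transcription start in nt. Grey ticks are ETS cores (3 to 6 per window), the square is the longer ETS site of SPRY1, circles are the 2 AP-1 matches of SPRED2, triangles are TGACG and the diamond is TATAAA.

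Of the 10 genes, 5 were higher in the SMN1-labelled libraries at an edgeR quasi-likelihood adjusted p of at most 0.05 (two-sided, Benjamini-Hochberg over all 15829 genes), against a background of 28.0% of all tested genes called higher and 56.2% called in either direction. Calls over all genes were 49.8% higher on counts and 63.1% higher on log2(FPKM + 0.1). The 5 genes, called higher on both scales, were PHLDA1, DUSP4, SPRED1, SPRY4 and SPRED2. None was called lower by edgeR, where the background is 28.2%, nor by DESeq2 or limma-voom. Over all genes DESeq2 called 3532 of 17110 lower and limma-voom 4478 of 15829. At an unadjusted p under 0.05, 1 gene was lower by edgeR, 0 by DESeq2 and 1 by limma-voom. The share of all genes at that unadjusted threshold is not given, so nothing is read from these counts. In those 5 genes no SMN1-labelled library overlapped a control library in CPM, a state shared by 30.4% of tested genes in that direction. SPRY1 alone was separated the other way, as were 30.2% of tested genes, and 60.7% were separated in either direction. The median log2 fold change was 0.08 over the 10 members and 0.00 over all tested genes. Since the genes were chosen with results of this comparison known, nothing is read from their share of calls.

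**Figure D2:**
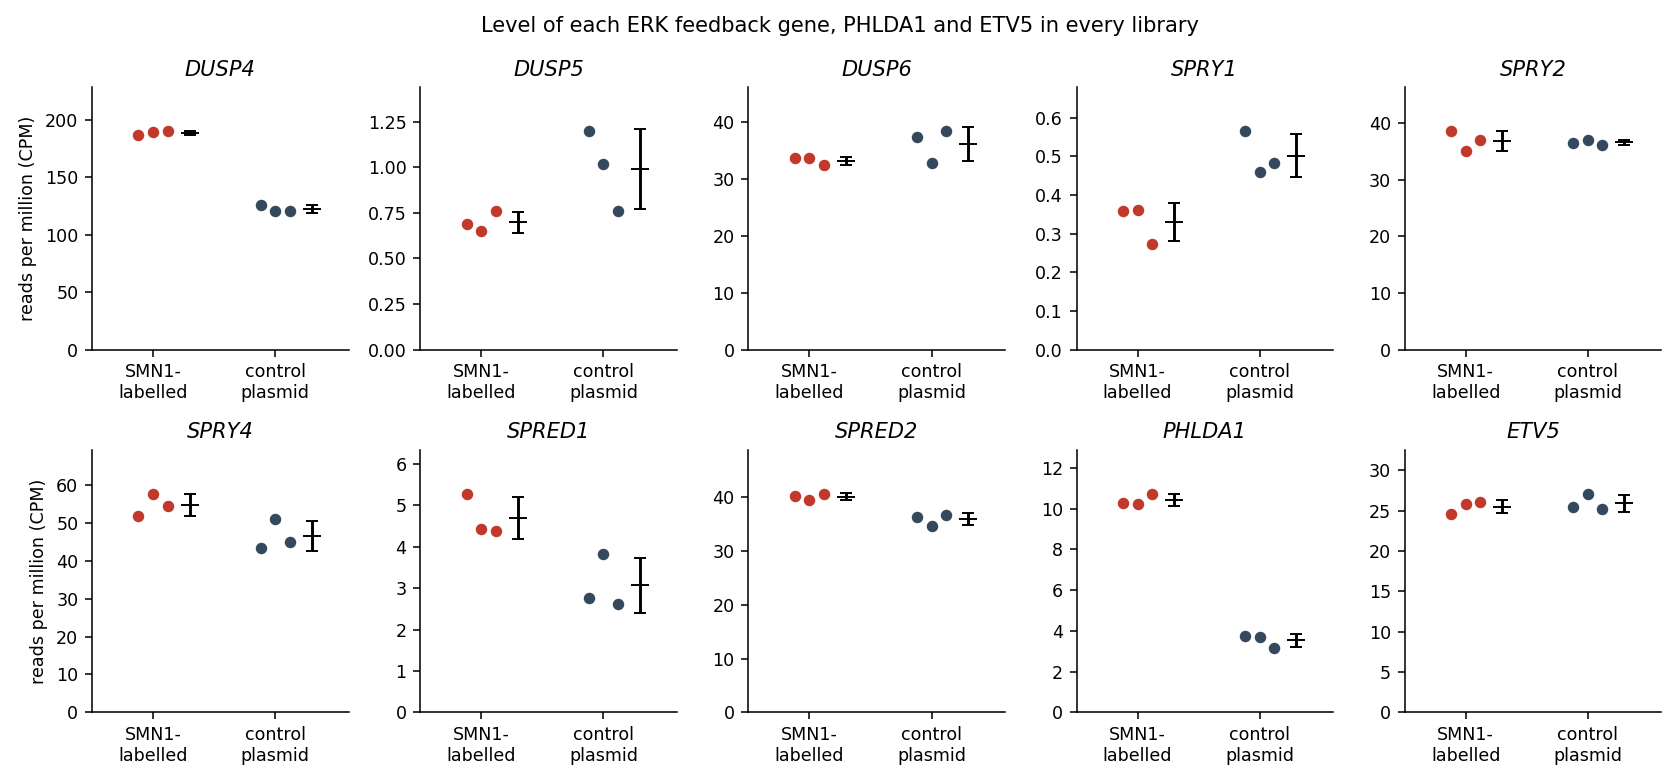
CPM (TMM-scaled) of each gene in every library, with the 3 SMN1-labelled libraries left of the 3 control libraries; the dash and bar are mean and SD. PHLDA1 lay at 10.2 to 10.7 CPM in SMN1-labelled libraries and 3.17 to 3.73 CPM in controls, whereas SPRY2, DUSP6 and ETV5 overlapped between groups.

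On the FPKM scale, which divides by gene length and so allows levels of different genes to be set side by side, the order of the 10 genes was the same in both groups. Between groups this scale is shifted towards the SMN1-labelled libraries. Over 12345 genes the median log2 fold change was 0.087 on log2(FPKM + 0.1) and 0.0014 on counts. DUSP4 was the most abundant, at 25.2 ± 0.381 FPKM in the SMN1-labelled and 15.4 ± 0.517 FPKM in the control libraries. SPRY2 followed at 11.2 ± 0.5002 FPKM in the SMN1-labelled and 10.4 ± 0.237 FPKM in the control libraries. DUSP6 (8.37 ± 0.146 FPKM) and SPRY4 (8.10 ± 0.460) did not differ beyond their spread in the SMN1-labelled libraries, while in the control libraries DUSP6 (8.57 ± 0.645) stood above SPRY4 (6.48 ± 0.584) without overlap. SPRED2 and ETV5 came next. PHLDA1 stood at 1.71 ± 0.0520 FPKM in SMN1-labelled and 0.547 ± 0.0577 FPKM in control libraries, ahead of SPRED1, DUSP5 and SPRY1, which were all below 1 FPKM in every library.

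Among the phosphatases the 3 genes diverged. DUSP4 encodes a nuclear phosphatase of ERK, JNK and p38. It had 6254, 7885 and 6258 reads in the SMN1-labelled libraries and 3793, 3678 and 3505 in the control libraries, or 187, 190 and 190 CPM in the SMN1-labelled against 126, 120 and 121 CPM in the control libraries. Every SMN1-labelled library lay above every control library, and the gene was 1.54-fold higher (log2 fold change 0.62, SE 0.03, edgeR adjusted p = 5.45e-13). The call held under all 19 alternative settings, with log2 fold changes from 0.58 to 0.71.

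DUSP6 encodes the cytoplasmic phosphatase dedicated to ERK, and its transcript is a common readout of ERK activity. It was at 33.7, 33.6 and 32.4 CPM in the SMN1-labelled libraries and at 37.4, 32.8 and 38.5 CPM in the control libraries. The groups overlapped because the second control library was as low as the SMN1-labelled ones. The log2 fold change of -0.12 (SE 0.05, 95% interval -0.23 to -0.01) missed the threshold (edgeR adjusted p = 0.0513). The call turned on the setting. The adjusted p for DUSP6 was 0.00379 without the second control library, 0.0483 with DESeq2 size factors, 0.0303 with a filter at 1 CPM, and 0.00146 once trends with exonic length and base composition were taken out. Over all alternatives it ran between 0.00146 and 0.755.

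DUSP5, a nuclear phosphatase specific to ERK, was near the lower end of detection, with 23, 27 and 25 reads in the SMN1-labelled and 36, 31 and 22 in the control libraries. The libraries overlapped, and the log2 fold change of -0.51 (SE 0.25, edgeR adjusted p = 0.0829) had an interval from -1.02 to 0.00. Without the third control library the adjusted p was 0.0405 (log2 fold change -0.67), within 0.0405 to 0.341 over the alternatives.

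The composition of the phosphatase trio also differed between groups. DUSP4, DUSP5 and DUSP6 summed to 33.9 ± 0.318 FPKM in the SMN1-labelled and 24.3 ± 0.939 FPKM in the control libraries, on a scale shifted between groups. DUSP4 made up 74.5% ± 0.508 of that sum in the SMN1-labelled libraries and 63.3% ± 1.61 in the controls, and DUSP6 made up 24.7% ± 0.555 in the SMN1-labelled libraries and 35.2% ± 1.84 in the controls. The log2 ratio of DUSP6 to DUSP4 reads, which does not depend on scaling between libraries, was -2.51 ± 0.0424 in the SMN1-labelled and -1.76 ± 0.113 in the control libraries. The difference of -0.74 separated all 6 libraries by group. Its exact two-sided permutation p was 0.1, the smallest that 3 against 3 allows, and 0.2 after Benjamini-Hochberg adjustment over the 6 ratios computed.

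**Figure D3:**
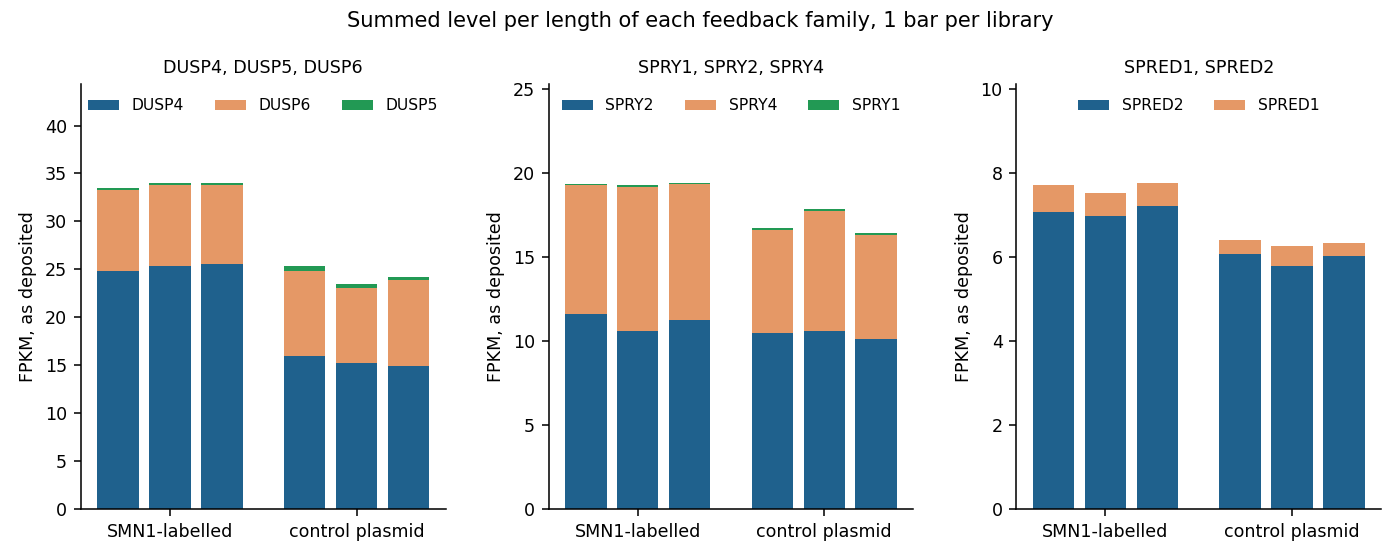
Deposited FPKM of the family members stacked for each library, SMN1-labelled libraries left of controls. DUSP4 supplied 74.5% of the phosphatase sum in SMN1-labelled libraries and 63.3% in controls, while SPRY1, DUSP5 and SPRED1 were minor in every library.

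Of the Sprouty genes only SPRY4 was called. It stood at 51.8, 57.7 and 54.4 CPM in the SMN1-labelled libraries and 43.5, 50.9 and 44.9 CPM in the control libraries. The lowest SMN1-labelled library lay just above the highest control, and the gene was 1.18-fold higher (log2 fold change 0.24, SE 0.05, edgeR adjusted p = 0.000467). The direction and call held under all 19 alternatives (adjusted p 3.22e-07 to 0.0258). SPRY4-AS1, an antisense gene within the SPRY4 locus that shares no annotated exonic base with it, was at 2.00 ± 0.0874 CPM in SMN1-labelled and 2.39 ± 0.145 CPM in control libraries (log2 fold change -0.26, SE 0.15, edgeR adjusted p = 0.145).

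SPRY2, the more abundant Sprouty, was at 38.6, 35.1 and 37.0 CPM in the SMN1-labelled libraries, around the 36.6, 37.0 and 36.2 CPM of the control libraries. Its log2 fold change was 0.01 with a 95% interval of -0.08 to 0.11. SPRY1 had 12, 15 and 9 reads in the SMN1-labelled libraries and 17, 14 and 14 in the controls. After scaling the SMN1-labelled libraries were all lower, at 0.274 to 0.361 CPM against 0.459 to 0.566 CPM in the control libraries, but at this depth the log2 fold change of -0.59 (SE 0.32) did not pass (edgeR adjusted p = 0.125). The log2 ratio of SPRY4 to SPRY2 averaged 0.56 ± 0.147 in the SMN1-labelled and 0.34 ± 0.108 in the control libraries, with overlap (exact permutation p = 0.2, two-sided, adjusted p = 0.24). That of SPRY1 to SPRY2 averaged -6.75 ± 0.227 in the SMN1-labelled and -6.15 ± 0.159 in the control libraries, without overlap (exact permutation p = 0.1, adjusted p = 0.2). The 3 genes summed to 19.4 ± 0.0751 FPKM in the SMN1-labelled and 17.0 ± 0.760 FPKM in the control libraries, without overlap. These sums carry the shift of the FPKM scale between groups. SPRY2, level in CPM, had a higher mean FPKM in the SMN1-labelled libraries.

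Both SPRED genes were called higher. SPRED1, whose loss in people causes Legius syndrome, was at 5.29, 4.42 and 4.38 CPM in the SMN1-labelled libraries and 2.76, 3.83 and 2.62 CPM in the control libraries. The groups did not overlap, and the gene was 1.52-fold higher (log2 fold change 0.60, SE 0.14, edgeR adjusted p = 0.000621). SPRED2 was higher by a smaller step, 1.12-fold, at 40.2, 39.5 and 40.7 CPM in the SMN1-labelled and 36.4, 34.6 and 36.8 CPM in the control libraries (log2 fold change 0.16, SE 0.04, edgeR adjusted p = 0.00334). The log2 ratio of SPRED1 to SPRED2 reads was -3.10 ± 0.152 in SMN1-labelled and -3.56 ± 0.342 in control libraries, with overlap (exact permutation p = 0.2, two-sided, adjusted p = 0.24, where 0.1 is the smallest possible). The difference in ratio was 0.46, and 0.66 without the second control library. The fitted 95% intervals of the log2 fold changes were 0.32 to 0.89 for SPRED1 and 0.07 to 0.25 for SPRED2. SPRED2 supplied 92.4% ± 0.792 of the summed SPRED level per length in the SMN1-labelled and 94.3% ± 1.41 in the control libraries.

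Long genes of low GC content were higher as a class in the SMN1-labelled libraries (Spearman's rho of log2 fold change across 15663 genes 0.34 with exonic length and -0.43 with GC content; genes are not independent). SPRED1 is such a gene, with 8260 nt of exons, longer than 82.3% of tested genes, and a GC content of 38.9%, with 10.5% of tested genes lower. After a correction for both trends within each library its log2 fold change was 0.32 (SE 0.14, edgeR adjusted p = 0.0626), and that of SPRED2 was 0.09 (SE 0.04, adjusted p = 0.0672). Neither was then called, which left 3 members higher and DUSP6 lower. Over the alternatives the adjusted p of SPRED1 ran from 3.24e-06 to 0.0626 and that of SPRED2 from 0.00106 to 0.0672.

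The ERK output genes parted most widely. PHLDA1 had 344, 425 and 353 reads in the SMN1-labelled libraries and 112, 113 and 92 in the control libraries, or 10.3, 10.2 and 10.7 CPM in the SMN1-labelled against 3.73, 3.70 and 3.17 CPM in the control libraries. Libraries of a group lay close together and the gap between groups was wide. The level was 2.94-fold that of controls (log2 fold change 1.55, SE 0.10, 95% interval 1.36 to 1.75), above 99.9% of tested genes. After the length and GC correction the log2 fold change was 1.34 (SE 0.09), and on the log2(FPKM + 1) scale, which understates low genes, it was 0.81.

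ETV5 was at 24.5, 25.8 and 26.0 CPM in the SMN1-labelled libraries, overlapping the 25.5, 27.1 and 25.2 CPM of the control libraries. Its log2 fold change was -0.02 (SE 0.05, 95% interval -0.13 to 0.08), a range that leaves out changes of the size seen for DUSP4 or PHLDA1. The sign turned on the FPKM scale (0.06 with a pseudocount of 0.1) and without the first SMN1-labelled (0.00) or the second control library (0.01), and no setting called it. The log2 ratio of PHLDA1 to ETV5 reads was -1.29 ± 0.0427 in the SMN1-labelled and -2.87 ± 0.107 in the control libraries, without overlap (exact permutation p = 0.1, two-sided, adjusted p = 0.2). PHLDA1 was already known to be higher when this ratio was chosen, so its separation is a description and the p is no evidence.

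**Figure D4:**
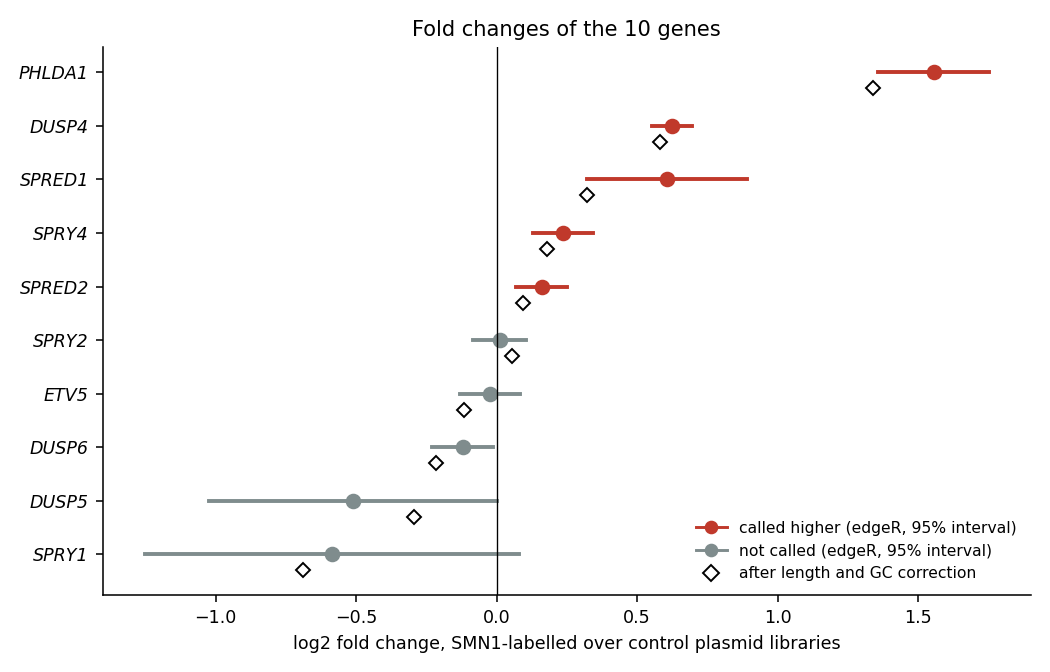
Log2 fold change of each gene, SMN1-labelled over control libraries, with its 95% interval from edgeR (circles and lines; red where called higher) and the estimate after correction for gene length and GC content (open diamonds). PHLDA1 stands at 1.55 and DUSP4 at 0.62, and the corrected estimates of SPRED1 and SPRED2 are 0.32 and 0.09.

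On GRCh38, by GENCODE 29, PHLDA1 lies on the minus strand of chromosome 12 at 76025447 to 76033932, and DUSP6 on the same strand at 89347232 to 89353271. Also on minus strands are DUSP4 (chromosome 8, 29333064 to 29350668), SPRY2 (chromosome 13, 80335976 to 80340951), SPRY4 (chromosome 5, 142310427 to 142326455), SPRED2 (chromosome 2, 65310851 to 65432637) and ETV5 (chromosome 3, 186046308 to 186110318). On plus strands are DUSP5 (chromosome 10, 110497838 to 110511544), SPRY1 (chromosome 4, 123396795 to 123403760) and SPRED1 (chromosome 15, 38252326 to 38357249). The values cover whole genes, all exons together. The annotation places RNA genes on the opposite strand of PHLDA1, 1 sharing 553 nt and another 779 nt of exon. Neither is among the genes of the deposited counts. An RNA gene opposite DUSP6 shares 1875 nt of exon and had 0 to 3 reads in any library. The kit was stranded but the strand setting of the counting is not given, so reads of such pairs cannot be told apart with certainty. ETV5 shares 164 nt of exon with DGKG on its own strand, which had 7 to 19 reads.

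The genes whose pattern came closest to that of PHLDA1 were ANKRD1, LAMA3 and ARHGAP36, by the root mean square difference of log2 CPM over the 6 libraries after centring on the control mean, among 10367 other genes that reached 5 CPM in either group. The differences were 0.0415, 0.0579 and 0.0613 on the log2 scale. ANKRD1 encodes a muscle ankyrin repeat protein, LAMA3 a laminin subunit and ARHGAP36 a protein that inhibits protein kinase A. ANKRD1 was at 32.2 ± 0.485 CPM in the SMN1-labelled and 11.0 ± 0.483 CPM in the control libraries, LAMA3 at 11.1 ± 0.682 CPM in SMN1-labelled and 3.63 ± 0.323 CPM in control libraries, and ARHGAP36 at 438 ± 12.9 CPM in SMN1-labelled and 153 ± 5.21 CPM in control libraries.

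Outside the 10 genes, the lists of the ERK pathway held 119 tested genes, of which 51 were higher and 35 lower, with a median log2 fold change of 0.09 (all tested genes: 28.0% higher, 28.2% lower, median 0.00). Among 7 other tested feedback genes 5 were higher and 0 were lower. SPRED3, a further SPRED gene among them, was not called (log2 fold change 0.07, edgeR adjusted p = 0.372). IL17RD, which encodes the membrane inhibitor SEF, was 1.27-fold higher, at 31.8 ± 1.88 CPM in SMN1-labelled and 25.0 ± 1.69 CPM in control libraries (edgeR adjusted p = 1.22e-05). LRIG1, whose product targets receptor tyrosine kinases for breakdown, was 1.77-fold higher (3.35 ± 0.329 CPM in SMN1-labelled and 1.88 ± 0.357 CPM in control libraries), and the ubiquitin ligase gene CBL 1.17-fold. After the length and GC correction 3 of the 7 were higher and CBL was not called (log2 fold change 0.04, edgeR adjusted p = 0.514, the highest of a range that began at 2.00e-04).

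The other MAP kinase phosphatases were mixed, with 1 of 6 tested genes higher and 2 lower. DUSP16, a phosphatase of JNK and p38, was 1.21-fold higher (62.8 ± 1.86 CPM in SMN1-labelled and 52.1 ± 0.707 CPM in control libraries). DUSP1, an immediate-early phosphatase, was 1.48-fold lower (7.98 ± 0.583 CPM in SMN1-labelled and 11.8 ± 0.459 CPM in control libraries, edgeR adjusted p = 1.81e-06). DUSP7, a close relative of DUSP6, was 1.17-fold lower, a call lost under 7 of the 19 alternatives, among them without the second SMN1-labelled library (edgeR adjusted p = 0.0517) and without the second control library (0.1005). Its adjusted p ran between 0.00964 and 0.183 over the alternatives.

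Among 4 paralogs of the output genes 1 was higher and 2 were lower. The higher ones numbered 2 without the first SMN1-labelled or the first control library, after thinning and on log2(FPKM + 1) without a filter, and the lower ones 0 to 1 under 6 alternatives. PHLDA3, a p53-induced relative of PHLDA1, was 1.37-fold higher (80.3 ± 6.77 CPM in SMN1-labelled and 58.7 ± 2.22 CPM in control libraries, edgeR adjusted p = 3.81e-08). PHLDA2, an imprinted gene, was at 0.304 ± 0.171 CPM in SMN1-labelled and 0.819 ± 0.450 CPM in control libraries with overlapping libraries. Its log2 fold change was -1.42 (edgeR adjusted p = 0.00427), and the call did not hold without the second control library (log2 fold change -0.95, adjusted p = 0.0804) or on log2(FPKM + 1) without a filter (adjusted p = 0.207, the highest over the alternatives, the lowest being 6.50e-05). ETV4, the PEA3 relative of ETV5, was 1.26-fold lower (24.2 ± 1.07 CPM in SMN1-labelled and 30.6 ± 3.09 CPM in control libraries, edgeR adjusted p = 4.33e-05), a call lost after the length and GC correction (adjusted p = 0.0763) and on log2(FPKM + 1) without a filter (0.0966), within a range that began at 1.00e-07.

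Published MEK and MAPK output signatures, leaving out the members, had 3 of 14 tested genes higher and 5 lower, with a median log2 fold change of -0.05. ETV4, already counted among the paralogs above, is on this list too and is among the lower genes. The lower ones numbered 3 with DESeq2 and on log2(FPKM + 0.1), and 2 on log2(FPKM + 1) without a filter. S100A6, a calcium-binding protein gene, was 1.53-fold lower (44.2 ± 0.744 CPM in SMN1-labelled and 67.5 ± 3.17 CPM in control libraries) and FXYD5, a regulator of the sodium pump, 3.47-fold lower (1.41 ± 0.232 CPM in SMN1-labelled and 4.84 ± 0.596 CPM in control libraries). ELF1, an ETS factor, was 1.46-fold higher (17.8 ± 0.350 CPM in SMN1-labelled and 12.2 ± 0.847 CPM in control libraries).

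The ERK-responsive early genes were mostly lower, with 11 of 17 tested genes lower, 4 higher and a median log2 fold change of -0.61. FOS had 4.85 ± 0.290 CPM in the SMN1-labelled and 51.2 ± 0.676 CPM in the control libraries, EGR1 43.2 ± 1.26 CPM in SMN1-labelled and 141 ± 0.923 CPM in control libraries, and FOSB 0.582 ± 0.0675 CPM in SMN1-labelled and 7.37 ± 0.622 CPM in control libraries. The edgeR adjusted p was at most 5.51e-15 for each of these transcription factor genes. In the same libraries PHLDA1, DUSP4 and SPRY4 were higher while FOS, EGR1 and FOSB were lower, but neither set was uniform. DUSP5, DUSP6, SPRY1, SPRY2 and ETV5 were not called, and 4 of the 17 early genes were higher.

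**Figure D5:**
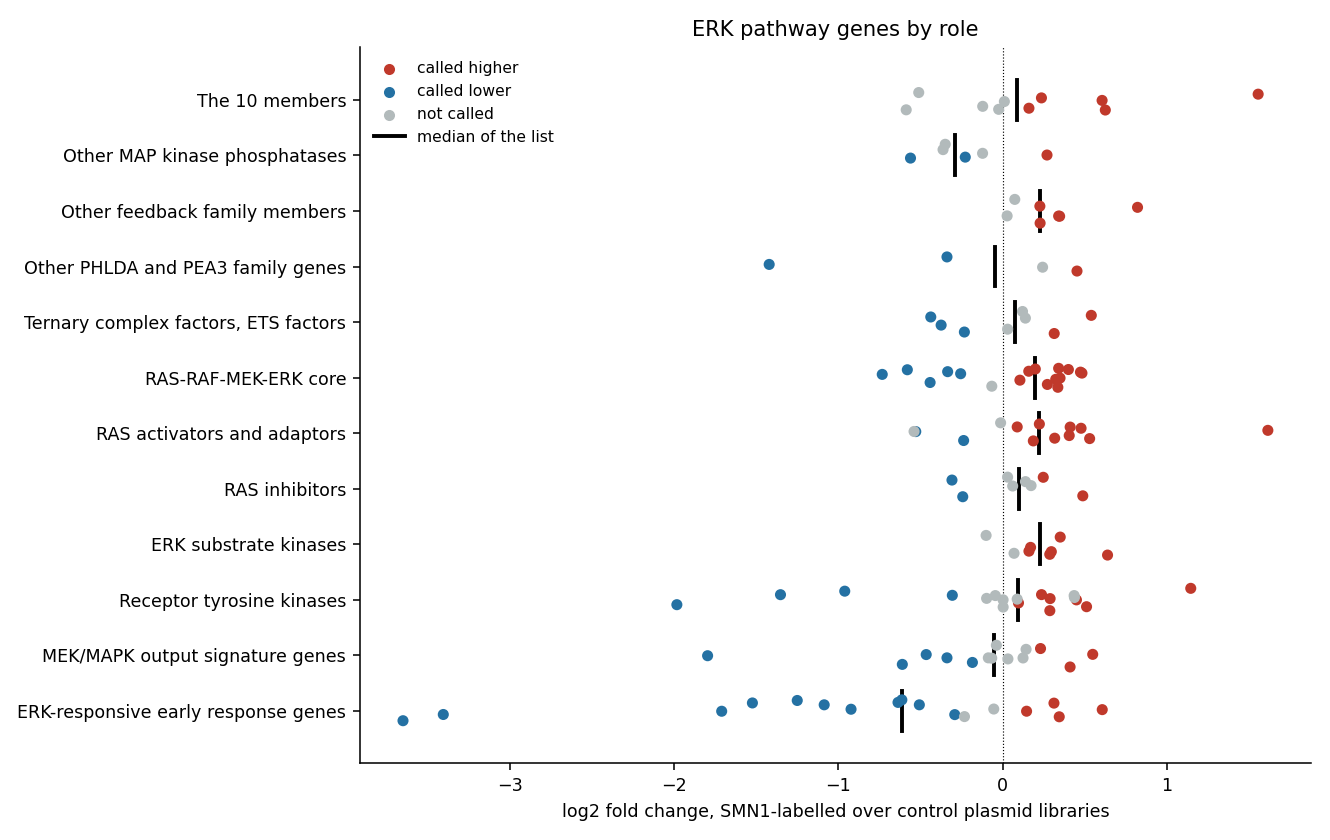
Log2 fold change of every tested gene of the ERK pathway lists, SMN1-labelled over control libraries, 1 row per list, with black bars at list medians. The medians are 0.08 for the 10 members, 0.23 for other feedback genes and -0.61 for early response genes.

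The cascade itself was not uniform. Of 17 core genes from RAS to ERK 11 were higher and 5 lower, with a median log2 fold change of 0.20. PEBP1, which encodes the RAF kinase inhibitor protein, was 1.66-fold lower (142 ± 5.19 CPM in SMN1-labelled and 237 ± 4.22 CPM in control libraries, edgeR adjusted p = 5.77e-14), MAPK3, which encodes ERK1, was 1.36-fold lower (25.5 ± 0.594 CPM in SMN1-labelled and 34.6 ± 1.42 CPM in control libraries) and HRAS 1.26-fold lower (140 ± 6.07 CPM in SMN1-labelled and 177 ± 6.88 CPM in control libraries). After the length and GC correction 6 were higher and 3 lower, and HRAS was not called (log2 fold change 0.01, edgeR adjusted p = 0.844, the highest of a range that began at 1.13e-14).

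Among 13 tested RAS activators and adaptors 9 were higher and 2 lower, with 1 lower after the length and GC correction and 0 on log2(FPKM + 1) without a filter. PTPN11, the gene of the phosphatase SHP2 that RAS activation needs, was 1.39-fold higher (80.4 ± 3.09 CPM in SMN1-labelled and 57.8 ± 2.42 CPM in control libraries), the adaptor SHC1 1.25-fold (308 ± 3.35 CPM in SMN1-labelled and 247 ± 6.37 CPM in control libraries) and the docking protein gene GAB2 1.17-fold (324 ± 6.10 CPM in SMN1-labelled and 277 ± 7.64 CPM in control libraries). Of 8 transcription factors of the ternary complex and ETS families 2 were higher and 3 lower. The ETS repressor gene ETV3 was 1.45-fold higher (43.7 ± 1.32 CPM in SMN1-labelled and 30.1 ± 0.596 CPM in control libraries) and SRF, the serum response factor gene, 1.24-fold higher (51.9 ± 3.02 CPM in SMN1-labelled and 41.8 ± 2.36 CPM in control libraries). ETS1 was 1.35-fold lower (10.7 ± 0.816 CPM in SMN1-labelled and 14.6 ± 0.850 CPM in control libraries).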

How the data were processed

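Stranded mRNA libraries of SH-SY5Y cells were sequenced as read pairs, per the labels' protocols. The submitters' processing notes name HISAT2, DESeq2 and the GRCh38 build, without versions. The counting tool, its annotation and its strand setting were not given in the sources used here. The authors deposited whole-number read counts for each gene and, beside them, FPKM values scaled by gene length and depth.

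The deposited counts went into edgeR 4.0.16 (R 4.3.3) with TMM scaling, the default filterByExpr filter and a quasi-likelihood test with group as the only term. Calls were made at a Benjamini-Hochberg adjusted p of at most 0.05. The SE was taken from the log2 fold change and its F statistic. No 2 libraries of a group agreed within counting noise (chi-square over degrees of freedom 2.52 to 4.40). The 19 alternatives were DESeq2 1.42.0, limma 3.58.1 (voom, and log2 FPKM with a pseudocount of 0.1 or 1 at 0.5 FPKM or more, or unfiltered), 2 other scalings, 2 other filters, ribosomal protein and mitochondrial genes removed, thinning, the replicate block, each library left out, and spline offsets for length and GC content by GENCODE 29 (15663 genes). The fits were also run on simulated counts in which only a small part of the genes changed. In these libraries far more genes were called, so scaling under widespread change was not tested.

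The members, lists and tests were chosen with earlier results of these data known. Outside the members, the pathway genes named are up to 3 called genes per list in order of p, and SPRED3. The 3 genes most like PHLDA1 are named as well. A gene that the rule names is not reported here. Of 130 other pathway genes listed, 129 were found. Promoters are RefSeq sequences.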

Additional observations from a re-analysis of the deposited data

How the results depend on the processing

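PHLDA1, DUSP4 and SPRY4 kept their direction and call under all 19 alternatives. The members called higher numbered 5 in all settings but the length and GC correction, where they numbered 3. Members called lower numbered 0 in the reported fit and 1 with DESeq2 size factors, upper-quartile factors, the stricter filter, ribosomal protein and mitochondrial genes removed, and the length and GC correction (DUSP6 each time), and 0 to 1 when a library was left out. Over all genes 4426 were higher and 4466 lower. On FPKM the lower calls were 2848 (pseudocount 0.1), 2938 (pseudocount 1) and 2937 (no filter), and 62.9% to 63.1% of calls were higher, against 49.8% on counts. Pathway genes called lower numbered 35, and 23 on log2(FPKM + 1) without a filter. The sign of SPRY2, near 0 throughout, turned with upper-quartile factors (-0.0056), the stricter filter (-0.0014) and without the first SMN1-labelled library (-0.0227; -0.0227 to 0.0492 over the libraries left out). That of ETV5 turned on FPKM (0.062 with a pseudocount of 0.1, 0.0512 with 1, with or without the filter) and without the first SMN1-labelled (0.0015) or second control library (0.0106; -0.0454 to 0.0106 over the libraries left out), and that of HRAS with the length and GC correction (0.0089). The causes were not tested. None of the ratios between members changed sign. DUSP5 and SPRY1 fell below the filters of 3 alternatives, which gave them no value. Replicate numbers did not pair the libraries (correlation of same-numbered deviations 0.003 to 0.0133). With the replicate block 4326 genes were higher and 4382 lower, and 5 members higher and 0 lower. Depth limits SPRY1 and DUSP5, with 9 to 36 reads per library.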

Other observations

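Receptors and effectors at either end of the cascade were described in the same way. Of 18 tested receptor tyrosine kinase genes 7 were higher and 4 lower in the SMN1-labelled libraries, with 2 lower on the FPKM scale. Of all tested genes 28.0% were higher, 28.2% lower and 56.2% called in either direction. RET, the receptor of GDNF family ligands, was at 12.5 ± 0.296 CPM in SMN1-labelled and 49.4 ± 0.709 CPM in control libraries (SD, n = 3 each). IGF1R, the insulin-like growth factor receptor, was 1.36-fold higher (53.0 ± 1.83 CPM in SMN1-labelled and 38.9 ± 1.80 CPM in control libraries, edgeR adjusted p = 9.34e-09).

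Of 8 kinases that ERK phosphorylates 6 were called higher and 0 lower by edgeR (all tested genes: 28.0% higher, 28.2% lower). The ribosomal S6 kinase genes RPS6KA2 and RPS6KA3 were 1.27- and 1.56-fold higher, RPS6KA2 at 105 ± 2.77 CPM in SMN1-labelled and 82.5 ± 2.51 CPM in control libraries. MKNK2, an eIF4E kinase gene, was 1.12-fold higher with overlapping libraries (edgeR adjusted p = 0.0148), and its call was lost on log2(FPKM + 1) without a filter and without the first SMN1-labelled, the first control or the second control library (adjusted p 5.22e-05 to 0.125 over the alternatives). The count of 6 was 3 with DESeq2, on log2(FPKM + 1) without a filter, and without the first control library.

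Of 8 RAS inhibitors 2 were higher and 2 lower on counts. On the FPKM scale 4 were higher and 1 lower, and the higher ones numbered 1 with DESeq2 and without the third SMN1-labelled library. RASA1, a RAS GTPase-activating protein gene, was 1.40-fold higher (14.7 ± 0.660 CPM in SMN1-labelled and 10.5 ± 0.626 CPM in control libraries), whereas its relative RASA3 was 1.24-fold lower (30.9 ± 0.849 CPM in SMN1-labelled and 38.2 ± 2.42 CPM in control libraries) and LZTR1 1.18-fold lower (14.9 ± 0.179 CPM in SMN1-labelled and 17.7 ± 1.29 CPM in control libraries, edgeR adjusted p = 0.00237, lost on the FPKM scale).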
